A study of Mus musculus with 36 samples.

Results

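The actin and tropomyosin transcripts of mouse embryonic fibroblasts were followed while the cells were driven towards a heart muscle programme. The genes are Actc1, Acta1, Actb, Actg1, Tpm1, Tpm3 and Tpm4, 7 of 50509 gene symbols measured, and they were taken by symbol from both expression tables. The fibroblasts came from E12.5-13.5 embryos of a strain in which the Myh6 promoter, active in heart muscle, drives mCherry. GHMT cells received Gata4, Hand2, Mef2c and Tbx5, factors of heart development, and were kept with 1% DMSO (dimethyl sulfoxide, a polar solvent) or untreated. Uninfected cells of the same kind, with 1% DMSO or untreated, received no factors. All groups shared StemPro34 medium with FGF2, FGF10 and VEGF. Each of these 4 arms was sampled at days 2, 7 and 21 with 3 libraries per day, 36 libraries in 12 groups. Whether replicates came from separate cultures is not stated in the labels, and the p-values cover the spread among these libraries, which may be technical.

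Actin monomers polymerise into filaments, and tropomyosins are coiled coils that lie end to end along them. Actc1 (cardiac) and Acta1 (skeletal) encode the alpha-actins of the sarcomere's thin filament, both of which are used in the developing heart, while Actb and Actg1 encode the cytoplasmic actins found in nearly every cell. In striated muscle, tropomyosin and the troponin complex gate the access of myosin to actin, and Tpm1 is the main tropomyosin gene of the mouse heart. Tpm1, Tpm3 and Tpm4 all give cytoskeletal proteins as well, through alternative promoters and exons, so a value per gene does not say which protein form was made.

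The start regions of the actin genes are shown because many actin promoters carry the CArG box, the site bound by serum response factor (SRF), which switches both muscle and cytoskeletal genes. The sequences are from RefSeq (GRCm38.p6), cover the 250 bases before each gene's start, are written 5′ to 3′ on the gene's own strand, and have the CArG box match in capitals.
Actc1, chr2:114052876-114053125, minus strand: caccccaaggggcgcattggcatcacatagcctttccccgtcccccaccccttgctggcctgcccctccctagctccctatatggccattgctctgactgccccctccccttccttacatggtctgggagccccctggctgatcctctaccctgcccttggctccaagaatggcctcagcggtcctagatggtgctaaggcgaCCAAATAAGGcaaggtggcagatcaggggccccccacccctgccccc
Acta1, chr8:123894776-123895025, minus strand: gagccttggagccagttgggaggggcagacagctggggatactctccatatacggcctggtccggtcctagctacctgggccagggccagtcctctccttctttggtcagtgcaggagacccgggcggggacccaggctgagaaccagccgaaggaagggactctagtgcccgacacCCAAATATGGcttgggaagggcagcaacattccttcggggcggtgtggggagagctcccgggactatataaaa
Actg1, chr11:120348496-120348745, minus strand: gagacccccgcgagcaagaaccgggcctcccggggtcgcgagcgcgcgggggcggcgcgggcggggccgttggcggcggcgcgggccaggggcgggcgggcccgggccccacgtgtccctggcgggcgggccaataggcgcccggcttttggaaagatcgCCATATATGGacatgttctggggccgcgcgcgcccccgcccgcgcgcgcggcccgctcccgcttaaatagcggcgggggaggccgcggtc
The match lay 47 to 38 bases before the start of Actc1, 73 to 64 bases before that of Acta1 and 90 to 81 bases before that of Actg1. Windows were held for 6 of the 7 genes (7 windows, all but Actb), and both strands were searched. A CArG box was found in 482 of 32851 mouse windows of this length (1.47%) and in none of those of Tpm1, Tpm3 and Tpm4. The match overlapped no other motif searched in these 3 actin windows. Of those motifs, the MCAT element (CATTCC, 12.6% of windows) was present in Acta1 and Tpm1, the GATA site (AGATAA or TGATAA, 16.6%) in 1 of the 2 Tpm3 windows, and the MEF2 site (2.92%) and the T-box site (AGGTGTG, 5.10%) in none of the 7 windows. A match is a description of letters, and no binding was measured.

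Abundances are given as TPM, which scales each library to a fixed sum and each gene by its transcript length, so levels can be compared between genes. TPM keeps no read depth, and between 15776 and 18486 genes reached 1 TPM in a library. In 3 groups 1 library was taken to stand apart from the others: replicate 3 of GHMT cells with DMSO at day 21, replicate 1 of the same cells at day 7, and replicate 1 of untreated uninfected cells at day 21. Tpm1 at 2901 and 2397 TPM and Tpm4 at 309 TPM are their values below. Other libraries also lay far from their group in some of the 7 genes. Replicate 1 of untreated GHMT cells at day 7 had Tpm1 at 1705 TPM, against 960.4 and 671 TPM in its group. Replicate 1 of uninfected cells with DMSO at day 21 had Tpm4 at 256 TPM, against 145 and 126 TPM. The 8 cardiomyocyte markers summed to 4429.6 to 6752 TPM in GHMT DMSO libraries and 2255 to 2718 TPM in untreated GHMT libraries at day 21, against at most 10.4 TPM in any uninfected library. The 8 fibroblast markers summed to 5109 TPM or more in every library, and the 8 skeletal muscle markers summed to at most 2.28 TPM. Fewer cells of a type and less RNA per cell cannot be told apart in these bulk samples.

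Actc1 was near the low end of detection at day 2 and reached 608 TPM at most in GHMT cells at day 21. At day 2 it stood at 0.573, 1.19 and 0.586 TPM in GHMT cells with DMSO and at 0.364, 1.23 and 0.771 TPM in untreated GHMT cells. At day 7 the levels were 38.8, 181 and 77.6 TPM with DMSO and 25.2, 89.7 and 25.0 TPM untreated. At day 21 they were 299, 343 and 608 TPM with DMSO and 221, 269 and 268 TPM untreated. The treatment groups overlapped at days 2 and 7, replicate 2 was the highest of its group at both of these days, and at day 21 every DMSO library lay above every untreated one. In uninfected cells Actc1 was listed at 0 in 11 of 18 libraries, among them all 6 of day 21, and reached at most 0.293 TPM.

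The rise of Actc1 over time was tested on log2(TPM + 1) with limma across all genes, with Benjamini-Hochberg adjustment and a call at an adjusted p under 0.05. From day 2 to day 7 Actc1 rose in GHMT cells with DMSO by 5.56 ± 0.51 (log2 difference ± SE, limma adjusted p = 2.8e-05), and in untreated GHMT cells by 4.50 ± 0.51 (limma adjusted p = 0.00047). The untreated call was lost when only its 2 groups were fitted (limma adjusted p = 0.052). Actc1 at day 2 lay near or under the added 1 TPM, so both of these differences understate the ratios. With DMSO, 3 of the 7 genes rose over this interval (Actc1, Acta1 and Tpm1), where 17.4% of all genes tested were called, and untreated only Actc1 was called among the 7, where 4.78% of genes were. Between days 7 and 21 the difference was 2.26 ± 0.51 with DMSO (limma adjusted p = 0.059; no gene of the 7 called against 0.577% of genes, and 3 of 7 at an unadjusted p under 0.05) and 2.68 ± 0.51 untreated (limma adjusted p = 0.045; 1 of 7 called against 0.31% of genes). Both later values sit at the threshold. The untreated call was kept when any of GHMT DMSO day 7 replicates 1 and 2, DMSO day 21 replicates 1 and 3 or untreated day 7 replicate 2 was left out, and was lost without any of the other 13 libraries (limma adjusted p between 0.056 and 0.18). It was lost under 5 of the other settings too. With DMSO the later difference was called without GHMT DMSO day 21 replicate 1, DMSO day 7 replicate 2 or untreated day 7 replicate 2 (limma adjusted p = 0.027, 0.023 and 0.037).

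In order of mean level, Actc1 in GHMT cells stood at 417 ± 167 TPM with DMSO and 253 ± 27.7 TPM untreated at day 21, then 99.3 ± 73.8 and 46.6 ± 37.3 TPM with DMSO and untreated at day 7 (SD, n = 3 each). Neighbours in this order were separated in all their libraries, except the day 7 groups from each other and the day 2 groups from each other. Among protein-coding genes of a GHMT library, Actc1 ranged from place 13690 to place 99 by abundance.

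**Figure D1:**
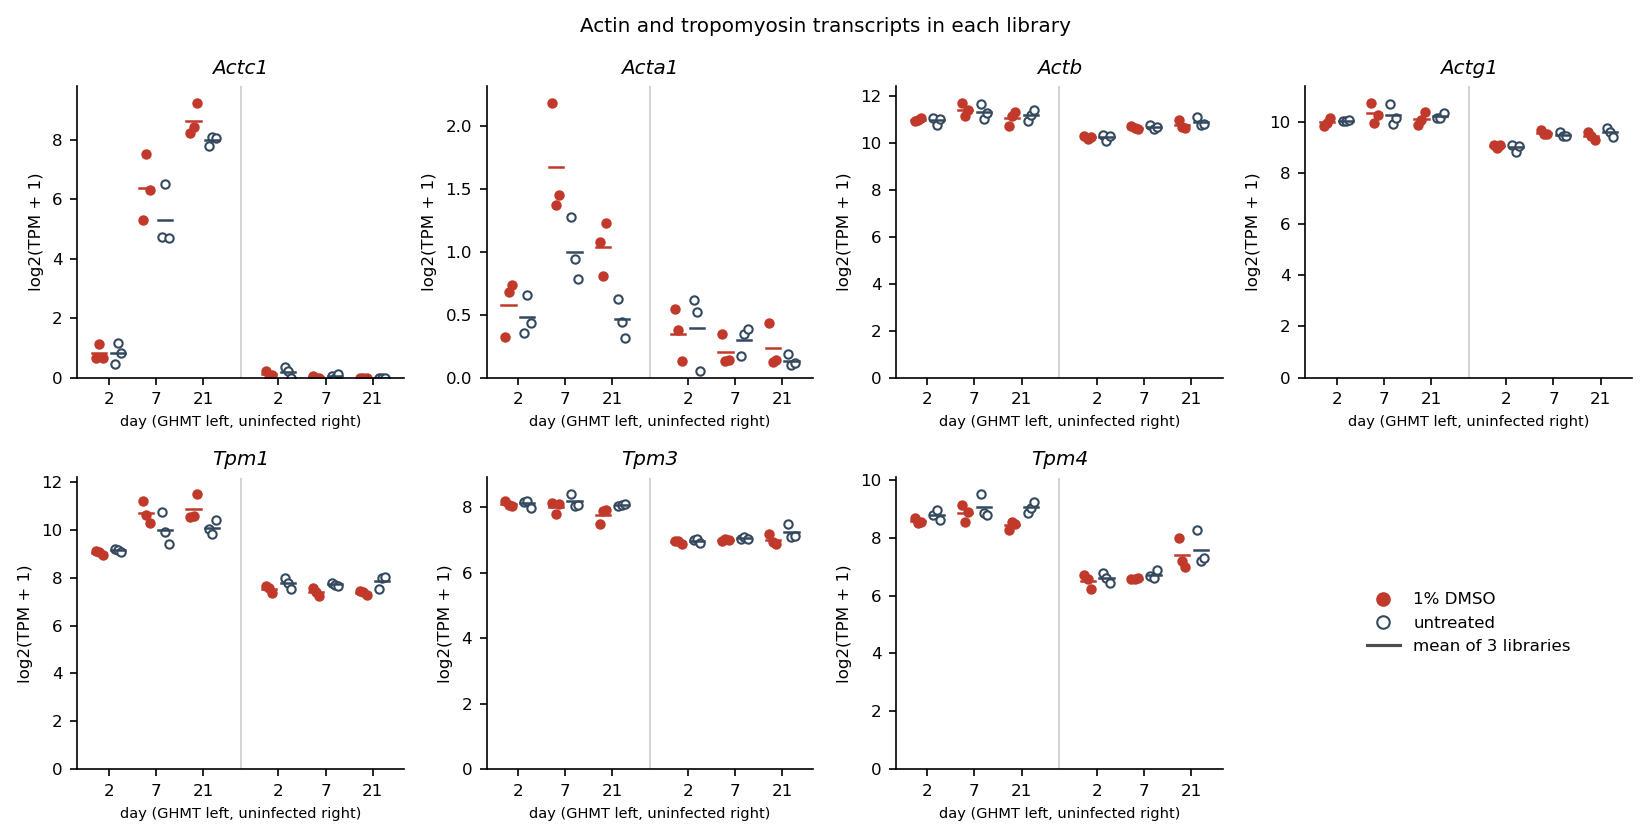
Each point is 1 library, as log2(TPM + 1) on the vertical axis, with bars at the mean of 3 libraries, for days 2, 7 and 21 of GHMT cells (left of the grey line) and uninfected cells (right), with DMSO filled and untreated open. Actc1 spans 0.364 to 608 TPM in GHMT cells and stays at or under 0.293 TPM in uninfected cells, while Actb and Actg1 are abundant in every group.

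Acta1, the actin of adult skeletal muscle, stayed at the low end of detection throughout. In GHMT cells it stood at 3.56, 1.60 and 1.75 TPM with DMSO and at 1.42, 0.922 and 0.719 TPM untreated at day 7. At day 21 it stood at 1.11, 0.747 and 1.35 TPM with DMSO and at 0.547, 0.362 and 0.246 TPM untreated. Every DMSO library was above every untreated library on both days, and the groups overlapped at day 2, when no library passed 0.665 TPM. Acta1 rose between days 2 and 7 with DMSO by 1.09 ± 0.22 on the log2(TPM + 1) scale (limma adjusted p = 0.0053), or 0.84 without DMSO replicate 1 of day 7, a call that was lost when only these 2 groups were fitted (limma adjusted p = 0.058). Its uninfected levels were 0.0379 to 0.531 TPM. Because a pseudocount of 1 TPM outweighs most of these values, the fitted differences understate the ratios. Among untreated GHMT libraries only day 7 replicate 1 reached 1 TPM (1.42 TPM). Acta1 thus met the filter of 1 TPM in 3 libraries through its DMSO libraries. Its fitted differences between treatments are therefore given as a description and are no test.

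The sarcomeric actins took a growing part of the actin transcripts of GHMT cells. Actc1 and Acta1 together made 11.04 ± 2.21% of the 4 actins with DMSO and 6.72 ± 0.479% untreated at day 21 (SD, n = 3), and 2.70 ± 2.32% with DMSO and 1.37 ± 1.31% untreated at day 7. The day 21 groups did not overlap, with the lowest DMSO library at 9.36% and the highest untreated one at 7.23%. Nearly all of this was Actc1, which held 99.7% of Actc1 plus Acta1 with DMSO and 99.8% untreated at day 21, and 60.8% and 64.5% at day 2. The Actc1 to Acta1 ratio at day 21 was 269, 458 and 451 with DMSO and 404, 745 and 1092 untreated, so the groups overlapped while the untreated mean was higher. The untreated ratios divide by Acta1 values of 0.547, 0.362 and 0.246 TPM, at the low end of detection, so they are uncertain. When the smooth muscle actins Acta2 and Actg2 are counted with Actc1 and Acta1, Actc1 held 30.3 ± 4.67% of the muscle actins with DMSO and 17.7 ± 4.87% untreated at day 21.

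**Figure D2:**
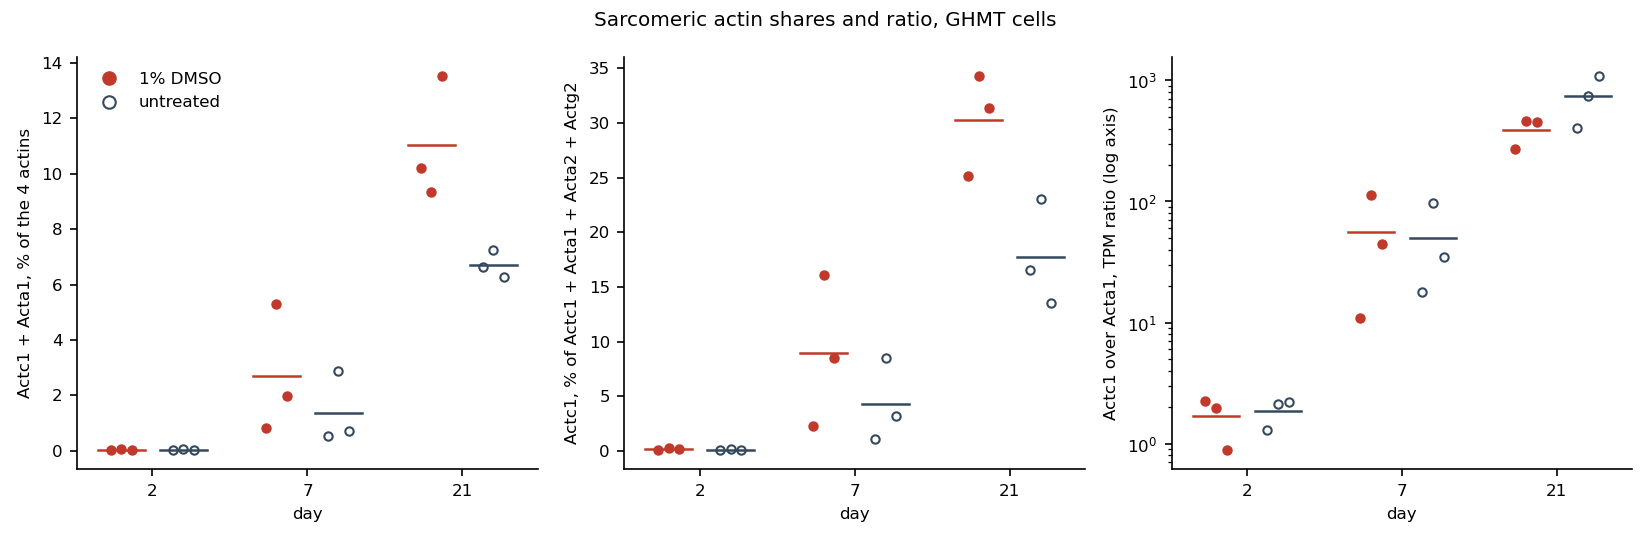
Points are GHMT libraries and bars group means, by day, with DMSO filled and untreated open, for the share of Actc1 plus Acta1 in the 4 actins (left, percent), of Actc1 in the 4 muscle actins (middle, percent) and the Actc1 to Acta1 ratio (right, log axis). The left and middle shares at day 21 are higher in every DMSO library, while the ratio at day 21 overlaps between 269 to 458 with DMSO and 404 to 1092 untreated. Acta1 lay under 1 TPM in every untreated library of day 21, so the untreated ratios are uncertain.

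Tpm1 was the most abundant tropomyosin of GHMT cells in every library and had the steepest course of the 3. At day 2 it stood at 549, 544 and 495 TPM with DMSO and at 581, 576 and 540.0 TPM untreated. At day 7 it stood at 2397, 1594 and 1256 TPM with DMSO and at 1705, 960.4 and 671 TPM untreated, and at day 21 at 1483, 1539 and 2901 TPM with DMSO and at 1045, 921 and 1352 TPM untreated. The groups overlapped at days 2 and 7, and at day 21 all 3 DMSO libraries were above all 3 untreated ones, replicate 3 by far the highest. Tpm1 rose between days 2 and 7 with DMSO by 1.67 ± 0.32 on the log2 scale (limma adjusted p = 0.0040), and leaving out any 1 library kept this call, with 1.42 without DMSO replicate 1 of day 7. Untreated, the same interval gave 0.87 ± 0.32 (limma adjusted p = 0.14). By mean level the order was DMSO day 21, DMSO day 7, untreated day 7 and untreated day 21, with neighbours overlapping, and every library of these 4 groups was above every library of day 2.

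Tpm3 and Tpm4, tropomyosins used widely in the cytoskeleton, were called in no comparison between days, in either arm. In GHMT cells Tpm3 ranged from 178 to 338 TPM over all 18 libraries. At day 21 it stood at 178, 234 and 239 TPM with DMSO and at 264, 269.5 and 273 TPM untreated. Tpm4 stood then at 311, 371 and 355 TPM with DMSO and at 469.6, 526 and 611 TPM untreated. Both had every DMSO library of day 21 below every untreated library, with overlap at days 2 and 7. In uninfected cells Tpm4 stood at day 21 at 256, 145 and 126 TPM with DMSO and 309, 144 and 155 TPM untreated, above the 74.5 to 118 TPM at days 2 and 7. The values of 256 and 309 TPM belong to replicate 1 of each group, and the difference between days 21 and 7 did not pass the test (0.80 ± 0.27 with DMSO, limma adjusted p = 0.18, and 0.86 ± 0.27 untreated, limma adjusted p = 0.15). No gene of the 5 tested was called over this interval, where 1.5% of all genes were with DMSO and 1.15% untreated, and 1 of 5 had an unadjusted p under 0.05 in limma in each.

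As shares of the 3 tropomyosins, Tpm1 made 76.7 ± 5.76% with DMSO and 57.6 ± 3.55% untreated in GHMT cells at day 21, and 69.9 ± 6.23% with DMSO and 55.6 ± 6.58% untreated at day 7 (SD, n = 3). Tpm4 made 14.4 ± 3.76% with DMSO and 28.1 ± 2.22% untreated at day 21, and Tpm3 8.94 ± 2.05% and 14.2 ± 1.83%. The Tpm1 to Tpm4 ratio at day 21 was 4.77, 4.15 and 8.17 with DMSO and 2.22, 1.75 and 2.21 untreated. These groups did not overlap, and replicate 3 with DMSO was the highest. At day 2 the Tpm1 share was 44.6 ± 1.35% with DMSO and 43.9 ± 1.78% untreated. Uninfected groups had mean Tpm1 shares between 35.98 and 49.4%. With Tpm2 counted as well, Tpm2 made 6.42 ± 0.955% with DMSO and 18.2 ± 0.513% untreated in GHMT cells at day 21.

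**Figure D3:**
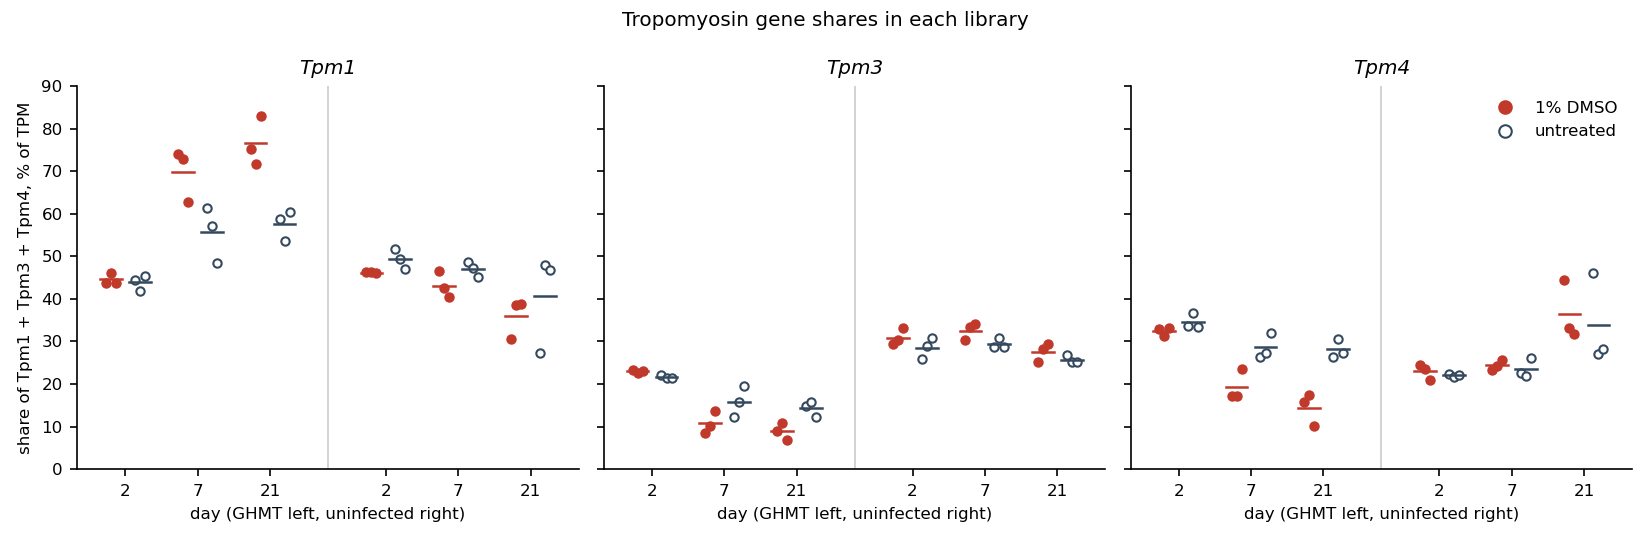
Shares of Tpm1, Tpm3 and Tpm4 in their summed TPM (percent) by library, with bars at group means, for each day and arm, with DMSO filled and untreated open. In GHMT cells the Tpm1 share at day 21 averages 76.7% with DMSO and 57.6% untreated, and the Tpm4 share 14.4% and 28.1%.

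The cytoplasmic actins were abundant in all groups. Actb in GHMT cells stood at 1694, 2242 and 2554 TPM with DMSO and at 1953, 2328 and 2708 TPM untreated at day 21, and it held places 2 to 20 among protein-coding genes over the 18 libraries. Actg1 stood then at 946, 1085 and 1337 TPM with DMSO and at 1155, 1133 and 1298 TPM untreated. The treatment groups of both genes overlapped at every day in GHMT cells, and so did all neighbours in the order of their 6 group means. The Actb to Actg1 ratio had group means between 1.88 and 2.46 over all 12 groups.

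In uninfected cells the levels of both cytoplasmic actins at day 7 lay above those of day 2, and Actg1 passed the test. Actg1 stood at 816, 741 and 733 TPM with DMSO and at 792, 692 and 692 TPM untreated at day 7, against 554, 501 and 546 TPM with DMSO and 554, 459 and 537 TPM untreated at day 2. No day 7 library fell into the range of day 2. It rose by 0.52 ± 0.11 with DMSO (limma adjusted p = 0.027; 1 of 5 genes tested called against 2.11% of all) and by 0.49 ± 0.11 untreated (limma adjusted p = 0.034; 1 of 5 against 2.14%). Each call was lost without any 1 of the 6 libraries it compares (limma adjusted p between 0.058 and 0.13 with DMSO and between 0.055 and 0.16 untreated). Actb gave 0.40 ± 0.11 with DMSO (limma adjusted p = 0.097) and 0.45 ± 0.11 untreated (limma adjusted p = 0.062). The Actb difference with DMSO was called without uninfected untreated day 21 replicate 1 (limma adjusted p = 0.048), and the untreated one without that library or uninfected DMSO day 21 replicate 1 (0.027 and 0.033).

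For the effect of DMSO itself, the fit without a replicate block called none of the 7 genes in GHMT cells at any day. It called none of the 5 testable genes in uninfected cells, where Actc1 and Acta1 fell under the filter of 1 TPM in 3 libraries. At day 7 in GHMT cells replicate numbers were taken as pairs, and with a block within each day Actc1 and Tpm1 passed (5.34% of all genes were called), as given below. At an unadjusted p under 0.05, limma gave 0, 2 and 4 of 7 genes in GHMT cells at days 2, 7 and 21, and 0, 1 and 2 of 5 in uninfected cells. Acta1 is among those of GHMT cells at days 7 and 21, and it met the filter through its DMSO libraries, so it is no test there. Over all genes tested, the called share in GHMT cells was 0.00485, 0.708 and 4.59% at these days, and in uninfected cells 0.285, 1.69 and 2.36%.

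At day 7 in GHMT cells the largest differences, DMSO minus untreated, were 1.07 ± 0.51 for Actc1 (limma adjusted p = 0.34), 0.71 ± 0.32 for Tpm1 (adjusted p = 0.31) and 0.67 ± 0.22 for Acta1 (adjusted p = 0.17). Replicate numbers paired the libraries at this day, and with the replicate number as a block within each day the same differences passed for Actc1 (limma adjusted p = 0.031) and Tpm1 (adjusted p = 0.023) but not for Acta1 (adjusted p = 0.057), where 5.34% of all genes were called. Between same-numbered libraries, Actc1 differed by 0.60, 1.01 and 1.60 and Tpm1 by 0.49, 0.73 and 0.90. All pairs had the same sign, and replicate 3 had the widest gap for both genes. With 1 library left out and no block, the Actc1 difference ranged from 0.50 (without DMSO replicate 2) to 1.67 (without untreated replicate 2), that of Tpm1 from 0.40 (without untreated replicate 3) to 1.07 (without untreated replicate 1) and that of Acta1 from 0.42 (without DMSO replicate 1) to 0.82. Without DMSO replicate 1, which stood apart, they were 1.60 for Actc1 and 0.46 for Tpm1. Without the block only Acta1 had groups that did not overlap, where 15% of genes had every DMSO library above every untreated one. Acta1 met the filter through its DMSO libraries, so its values here are a description. The cardiomyocyte markers moved alongside, with sums of 3235 to 4844 TPM with DMSO and 1104 to 2146 TPM untreated at day 7, and their part in the result was not tested.

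At day 21 in GHMT cells Tpm4 came nearest to the threshold, at −0.63 ± 0.19 (limma adjusted p = 0.069, 95% interval −1.03 to −0.22), and it was called without GHMT untreated day 7 replicate 1 (limma adjusted p = 0.032). Tpm1 differed by 0.78 ± 0.32 (adjusted p = 0.16, interval 0.09 to 1.47, and 0.47 without DMSO replicate 3), Acta1 by 0.57 ± 0.22 (adjusted p = 0.14, interval 0.10 to 1.05) and Tpm3 by −0.32 ± 0.13 (adjusted p = 0.16, interval −0.60 to −0.03, and −0.18 without DMSO replicate 1). Actc1 differed by 0.65 ± 0.51 (adjusted p = 0.46, interval −0.45 to 1.75, and 0.34 without DMSO replicate 3). The groups of 5 of the 7 genes did not overlap, with Actc1, Acta1 and Tpm1 above and Tpm3 and Tpm4 below, where 10.8% of all genes had every DMSO library above and 13.2% every DMSO library below. Acta1 is counted here though it met the filter through its DMSO libraries, so its values at this day are a description and no test. The cytoplasmic actins gave −0.11 ± 0.20 for Actb (adjusted p = 0.77, interval −0.55 to 0.32) and −0.10 ± 0.21 for Actg1 (adjusted p = 0.80, interval −0.56 to 0.35). The fibroblast markers summed to 5109 to 7116 TPM with DMSO and 7069 to 8177 TPM untreated at this day, and the 6 smooth muscle markers to 862 to 1665 TPM and 1255 to 2468 TPM, and the part of either in these values was not tested.

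In uninfected cells the largest difference with DMSO among the 7 genes was that of Tpm1. At day 21 it stood at 176, 169 and 154 TPM with DMSO and at 182, 257 and 258 TPM untreated, and at day 7 at 190.2, 167 and 152 TPM with DMSO and 219.5, 209 and 203 TPM untreated. All DMSO libraries were below all untreated ones on both days, where 14.2% of genes at day 7 and 7.15% at day 21 had every DMSO library below. The differences were −0.47 ± 0.14 at day 21 (limma adjusted p = 0.12) and −0.32 ± 0.14 at day 7 (limma adjusted p = 0.31). Without untreated replicate 1 of day 21, the lowest of its group, the day 21 difference was −0.63 and was called (limma adjusted p = 0.017). The smooth muscle markers summed to 48.8 to 60.8 TPM with DMSO and 139.97 to 159.5 TPM untreated at day 21, and their part in the Tpm1 difference was not tested.

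**Figure D4:**
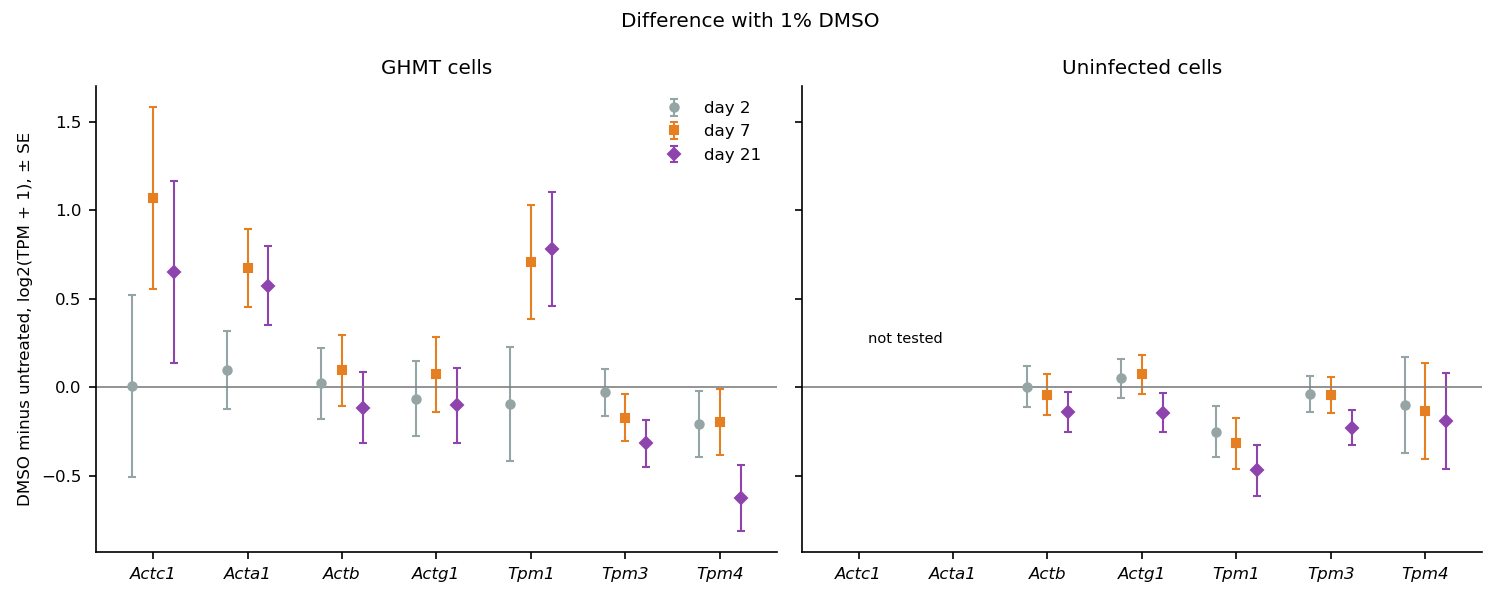
DMSO minus untreated difference on log2(TPM + 1) with its SE, for each gene at days 2, 7 and 21, in GHMT cells (left) and uninfected cells (right, where Actc1 and Acta1 were not tested). In GHMT cells Tpm1 lies at 0.71 and 0.78 at days 7 and 21 and in uninfected cells at −0.32 and −0.47. No difference in either panel passed the test in this fit, which has no replicate block. With the block within each day, Actc1 and Tpm1 of GHMT cells passed at day 7, where replicate numbers were taken as pairs.

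Whether DMSO acted differently in the 2 arms was tested as the difference of the differences over all 36 libraries. None of the 7 genes passed, with 0, 2 and 1 of 7 at an unadjusted p under 0.05 in limma at days 2, 7 and 21, where 0.00898, 0.117 and 0.588% of all genes were called. Actc1 and Acta1 reached 1 TPM in no uninfected library, so their values here restate the differences in GHMT cells and are no test between arms. Acta1 is among the 2 genes of day 7, beside Tpm1. Tpm1 had the largest value at day 21, 1.25 ± 0.36 (GHMT minus uninfected, limma adjusted p = 0.14), and it was 0.94 without GHMT DMSO day 21 replicate 3 and called without replicate 1 of that group (limma adjusted p = 0.026). The change of the DMSO difference between days 2 and 21 passed for none of the 7 genes in GHMT cells (0.0679% of all genes called) and none of 5 in uninfected cells (0.035%), with 0 genes in either at an unadjusted p under 0.05 in limma.

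For the change between days 2 and 21 in untreated cells, GHMT minus uninfected, none of the 5 genes testable in both arms was called, where 14.1% of all genes were. Tpm1 differed by 0.87 ± 0.36 (limma adjusted p = 0.10). With median ratio scaling of the libraries, Actb, Actg1, Tpm3 and Tpm4 were called, at −0.83, −0.81, −0.68 and −1.09, while the median over all genes changed to −0.02 from 0.24. Actc1 entered this fit through its GHMT libraries alone, since no uninfected library reached 1 TPM, so its value of 7.37 restates the change in GHMT cells and is given as a description with no test.

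Other genes of the thin filament and of actin turnover were read from 8 lists, some of which share genes. Of Acta2, Actg2 and Tpm2, the actins and the tropomyosin outside the 7, Tpm2 and Actg2 fell with DMSO in GHMT cells at day 21. Tpm2 stood at 116, 173 and 233 TPM with DMSO and 403, 368 and 511 TPM untreated, a difference of −1.33 ± 0.28 (limma adjusted p = 0.016). Actg2, the enteric smooth muscle actin, stood at 1.46, 1.58 and 1.71 TPM with DMSO and 6.13, 10.5 and 13.8 TPM untreated, a difference of −2.04 ± 0.39 (limma adjusted p = 0.011). Every DMSO library of both was below every untreated one, and both calls were lost without GHMT untreated day 21 replicate 3 (limma adjusted p = 0.068 and 0.052) and with only these 2 groups fitted (0.13 and 0.080).

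Of 7 troponin genes tested in GHMT cells at day 21, 1 rose and 1 fell (4.59% of all genes were called), with a median difference of 0.61 against −0.06 over all genes tested. The gene that rose was Tnnc1, a call lost in 4 of 18 fits with 1 library left out. The gene that fell was Tnnt3, troponin T of fast skeletal muscle, at 0.584 ± 0.415 TPM with DMSO and 20.5 ± 6.48 TPM untreated (SD, n = 3; −3.75 ± 0.45, limma adjusted p = 0.00075). Of 8 tested proteins that set filament ends and length, 2 rose and none fell. Tmod1, which caps the pointed end of thin filaments, averaged 61.8 ± 20.3 TPM with DMSO and 15.5 ± 1.80 TPM untreated (1.89 ± 0.25, limma adjusted p = 0.0013). Lmod2, which elongates thin filaments in the heart, averaged 5.42 ± 0.613 TPM with DMSO and 1.26 ± 0.169 TPM untreated (1.503 ± 0.18, limma adjusted p = 0.00075). Leaving out any 1 library kept the calls of Tnnt3, Tmod1 and Lmod2, while with only the 2 groups fitted, which called 6 genes of all tested, they missed the threshold (limma adjusted p = 0.051, 0.067 and 0.067). Lmod2 missed it with a pseudocount of 0.1 TPM as well (limma adjusted p = 0.065). The lists for monomer binding (16 genes), nucleation (15) and crosslinking (11) had 1 gene each that rose (Cap2, Fhod3 and Actn2) and none that fell. Their medians were −0.19, −0.18 and −0.32. Actn2 differed by 2.30 ± 0.46 (limma adjusted p = 0.014), a call lost in 2 of 18 fits with 1 library left out. The calls of Cap2 and Fhod3 were lost in 4 and 14 of 18 such fits, and those of all these genes with only the 2 groups fitted. At day 7 in GHMT cells Tmod1, Actn2 and Cap2 were called as higher with DMSO too, where 0.708% of all genes were called. Those day 7 calls were lost in 2, 4 and 12 of 18 fits with 1 library left out, and with only the 2 groups fitted.

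Of the 4 SRF and MRTF factors none passed the test at day 21 in GHMT cells, though all 4 differences were above 0 (median 0.38). Of 18 SRF target genes outside the 7, 1 rose and 1 fell (Zyx and Myl9; 4.59% of all genes were called), with a median of −0.08. With 1 library left out, the calls of Zyx and Myl9 were lost in 12 and 11 of 18 fits. In uninfected cells at day 21, 4 of the 18 targets fell and none rose (Acta2, Cnn2, Myl9 and Tagln; 2.36% of all genes were called, and the median was −0.22 against 0.01 over all genes tested). Of Acta2, Actg2 and Tpm2, Acta2 and Tpm2 fell, so Acta2 is counted in both lists, and no troponin of 6 tested passed. At day 7 in uninfected cells Acta2 (−2.03, limma adjusted p = 0.021) and Tpm2 (−1.54, limma adjusted p = 0.0082) were called too. So were Cnn2 (−1.22, limma adjusted p = 3.8e-05) and Myl9 (−1.94, limma adjusted p = 0.00044). The day 7 call of Acta2 was lost in 6 of 18 fits with 1 library left out, and the others of day 7 were kept. At day 21 the calls of Acta2 and Tagln were lost in 3 and 5 of 18 such fits, and those of Cnn2, Myl9 and Tpm2 were kept. The Tagln call was also lost with no filter and without the libraries that stood apart. Tpm2 missed the threshold at day 21 with only the 2 groups fitted (limma adjusted p = 0.052). Differences between the day 21 counts of the 2 arms were not tested.

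**Figure D5:**
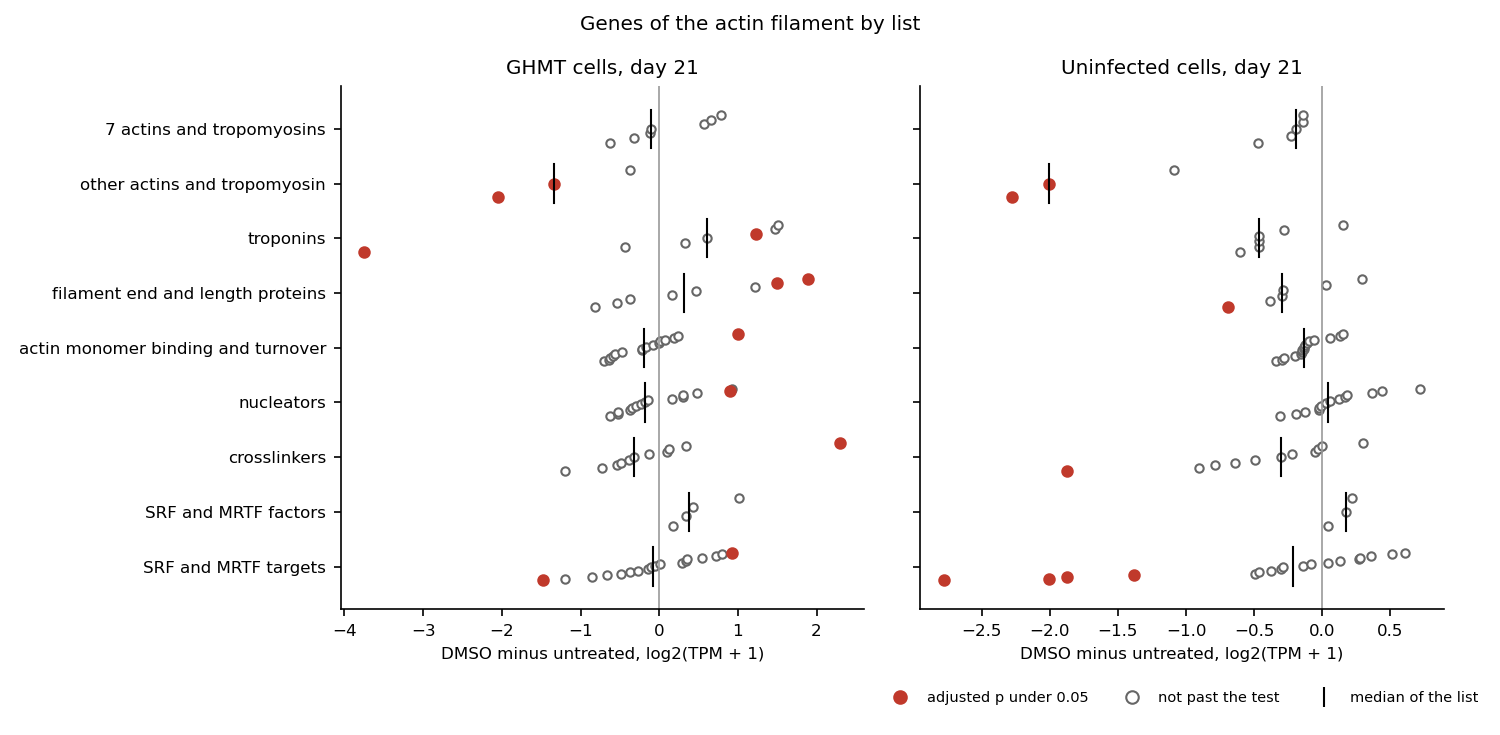
Each point is 1 gene's DMSO minus untreated difference on log2(TPM + 1) at day 21, by gene list and arm, filled where called, with bars at list medians. In GHMT cells Actn2, Tmod1 and Lmod2 lie at 2.30, 1.89 and 1.503 and Tnnt3 at −3.75, and the troponin median is 0.61.

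The genes most like each of the 7 were ranked by Pearson correlation of log2(TPM + 1) over the 18 GHMT libraries among 11303 genes, a description with no test, since these libraries share days and treatments. For Actc1 they included Kcnj5 and Ctnna3 (r = 0.987 and 0.979). For Tpm1 they were Fhod3, Exoc8 and Kif13a (r = 0.972, 0.969 and 0.954), and Fhod3 is a formin of the heart sarcomere. For Acta1 the nearest was Clstn2 (r = 0.909), for Actb Gpc3 (0.871), for Actg1 Phldb2 (0.903), for Tpm3 Itpripl1 (0.880) and for Tpm4 Unc13c (0.907). Over the 18 uninfected libraries the correlations were 0.525 for Gpc3 with Actb, −0.474 for Phldb2 with Actg1 and 0.156 for Itpripl1 with Tpm3. Exoc8 and Kif13a gave −0.178 and −0.294 with Tpm1 there. The other pairs named here were not computed in uninfected cells.

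Of the pairs among the 7 genes, Actb with Actg1 and Tpm3 with Tpm4 had the highest correlations within groups in GHMT cells. The deviations of Actb and Actg1 from their group means correlated at 0.89 in GHMT and 0.86 in uninfected libraries, and those of Tpm3 and Tpm4 at 0.84 and 0.93 (18 libraries each). Other pairs of Actb, Actg1, Tpm1, Tpm3 and Tpm4 in GHMT libraries correlated at 0.57 to 0.77. Actc1 and Tpm1, whose levels correlated at 0.80 over GHMT libraries, had deviations that correlated at −0.05. Some of these genes share sequence with other genes, which limits how reads can be assigned. Of the 31-base words of their transcripts, 59.8% for Actg1, 73.0% for Tpm3, 76.4% for Actb and 80.0% for Tpm4 occur in no other gene, against 95.9% for Acta1, 99.2% for Actc1 and 99.9% for Tpm1. Actg1 shares most with Gm12715 (36.6%), Tpm3 with Tpm3-rs7 (26.9%), Tpm4 with Gm7809 (16.0%), and Actb with Lrrc58 (15.2%), so values of Actb, Actg1, Tpm3 and Tpm4 are less certain. Acta1 shares most with Actb (3.72%). In GHMT libraries Actb stood at 1694 to 3378 TPM and Acta1 at 0.246 to 3.56 TPM, so the low values of Acta1 are less certain too. The effect of this sharing on Acta1 was not tested. Of possible near copies, only the entries named as pseudogenes or related sequences of Actg1 and Tpm3 were read (Actg-ps1, Tpm3-rs2 and Tpm3-rs7), and they reached at most 0.504% of the gene's own value.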

How the data were processed

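Cells were lysed in TRIzol, RNA was purified on Direct-zol columns and TruSeq libraries were made, per the labels' protocols. The submitters' processing notes name Trimmomatic, FastQC and kallisto. For build, annotation and strand, nothing is stated (not given in the sources used here). The authors deposited TPM per Ensembl gene in 2 tables, 1 for GHMT and 1 for uninfected cells, per the file headers. The fixed total of a column includes noncoding RNA. Protein-coding genes held 50.6 to 65.2% and 7SL RNA 13.2 to 25.4% of it, so a change in 7SL moves every other value. Of 50698 entries per table, 97 name no gene (0.248 to 4.81% of TPM) and were left out. Read depth is unknown, so no counting intervals are given.

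From the deposited TPM, log2(TPM + 1) was computed, keeping genes that reached 1 TPM in 3 libraries or more (20618 genes for GHMT, 19979 for uninfected cells, 22264 over both). limma 3.58.1 (R 4.3.3) was fitted with a mean-variance trend and 1 mean per group over 18 libraries (12 residual degrees of freedom), or over all 36 for differences between arms. Tests were two-sided, adjusted by Benjamini and Hochberg within each of 20 comparisons. Since the tables were made separately, levels were not tested between arms. The script was tested on simulated data. Sequences are from RefSeq, and shared words were counted in GENCODE M21.

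Replicate numbers were checked for pairing by correlating, between libraries with the same number, their deviations from group means. All were over 0.1 between DMSO and untreated GHMT libraries at day 2 (0.194 to 0.345) and day 7 (0.183 to 0.250), and between days 2 and 7 of untreated GHMT cells (0.135 to 0.177). A paired reading is given only for DMSO in GHMT cells at day 7. The values given for DMSO at day 2 and for untreated GHMT cells between days 2 and 7 come from the fit with no block, which leaves this pairing out. Alternatives were pseudocounts of 0.1 and 5, no filter, a filter at 5 TPM, median ratio and protein-coding scaling, replicate blocks, no trend, fits on the groups compared alone, and libraries left out. The genes, lists, libraries doubted and tests were chosen with earlier results of these data known. The 7 genes were named in every comparison. From each list, named genes were to be the called ones with the smallest adjusted p in each direction, and values are given for those that keep their call or belong to the actin and tropomyosin families. The 3 genes most like each of the 7 were ranked among those reaching 5 TPM in a group, without predicted or clone-type names. One gene that this ranking names is not reported here.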

Additional observations from a re-analysis of the deposited data

Results flagged for a closer look

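Actc1 changed with time in GHMT cells and was near or at 0 in uninfected cells. The change between days 2 and 21 without DMSO was 7.37 ± 0.54 larger in GHMT cells on the log2(TPM + 1) scale (3 libraries per group). Levels at day 2 lay near or under the added 1 TPM, so the 7.37 is no plain log2 ratio. Actc1 reached 1 TPM in no uninfected library and entered the joint fit through GHMT libraries alone, so this value is a description of its course in GHMT cells and no independent test between the arms. Untreated GHMT libraries held 221 to 269 TPM at day 21 and 0.364 to 1.23 TPM at day 2, while uninfected libraries held at most 0.293 TPM at day 2 and were listed at 0 at day 21.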

How the results depend on the processing

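No result changed direction among those called. The number of the 7 genes called differed from the one reported as follows, and the cause was not tested. With the replicate block within each day, 2 genes were called for DMSO in GHMT cells at day 7 (Actc1 and Tpm1), 2 at day 21 (Tpm1 and Tpm4) and 1 in uninfected cells at day 21 (Tpm3), against 0 each as reported, where this block called 5.34, 12.3 and 7.51% of all genes. At day 21 the numbers were not taken to pair libraries. The block over all libraries of an arm called no gene in these comparisons. Without the 3 libraries that stood apart, 1 gene (Tpm1) was called for DMSO in uninfected cells at day 21, and 2 genes for day 7 against day 2 in uninfected cells, both with DMSO and untreated. The Actc1 change between days 7 and 21 in untreated GHMT cells was called in 0 cases under a pseudocount of 0.1, no filter, median ratio scaling, protein-coding scaling and the fit on its groups alone. With DMSO it was 1 under a pseudocount of 5 and the replicate block. For day 7 against day 2 the count was 0 in untreated GHMT cells fitted on the groups alone. In uninfected cells it was 2 untreated under the 5 TPM filter and the replicate block, 0 untreated under median ratio scaling, no filter, protein-coding scaling and the fit on the groups alone, 2 with DMSO under the replicate block, and 0 with DMSO under median ratio scaling, no filter and the fit on the groups alone. The arm difference over time had 5, Actc1 included, under median ratio scaling.

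With each library left out, the counts ranged from 0 to 1 for DMSO at day 21 in GHMT cells, in uninfected cells and between arms, and for day 21 against day 7 in GHMT cells with DMSO and untreated. They ranged from 0 to 2 for day 7 against day 2 in uninfected cells, with DMSO and untreated, and were constant elsewhere. Over all genes, DMSO calls with 1 library left out ranged from 11 to 239 at day 7 and from 278 to 3138 at day 21 in GHMT cells (146 and 947 as reported). Over the other alternatives they ranged from 4 to 1102 and from 6 to 2536 there, and from 2 to 635, 266 to 1666 and 46 to 1500 in uninfected cells at days 2, 7 and 21 (57, 337 and 472 as reported). Median ratio scaling moved the median of all genes to −0.02 from 0.16 untreated and to −0.04 from 0.17 with DMSO for day 7 against day 2 in GHMT cells. It changed the sign of 14 of 124 differences, none of them called. Adding Acta2, Actg2 and Tpm2 to the sums moved the Tpm1 share by more than 1 SD in 8 of 12 groups.

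Low values limit Acta1, which reached 1 TPM in 6 of 18 GHMT libraries, and its counting error is unknown, since TPM gives no depth.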
